A study of Sus scrofa with 12 samples.

Results

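The collagen genes are the genes named COL, a type number, A and a chain number, and 39 of them stood among the 19256 genes of the mRNA table. They were found by this pattern of the gene name alone, and the TPM of their 138 transcripts were added up per gene. TPM is a transcript's share of a library, scaled for its length, so that levels can be compared between genes. COL4A1 carried no gene name in the table and was matched by its gene identifier, ENSSSCG00000044700, so it stands beside the members and is not counted with them. COL7A1, COL9A2, COL20A1 and COL24A1 were not analysed here.

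The study asked what colonization of the gut does to the porcine hypothalamus. Bama piglets, a small Chinese breed, were delivered by hysterectomy from 1 sow and raised in sterile isolators, and all groups shared this germ-free start. GF pigs stayed without gut microbes, and CG pigs received feces of a donor pig by gavage from day 3 to day 7 of life. Hypothalamic long RNA of 3 GF and 3 CG pigs, given in the labels as males of 45 days, was sequenced, and small RNA likewise with 3 libraries per group. The paper states a slightly lower age than the labels. Since the pigs lived in shared isolators, an effect of the isolator and one of the group cannot be told apart.

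Collagens are secreted proteins made of chains that wind around each other into a triple helix. Fibrillar collagens form the cables of connective tissue, type IV collagens the mesh of basement membranes around vessels and under the meninges, and others coat fibrils, anchor cells or span the membrane. In the brain most collagen lies in the meninges, the vessel walls and the basement membranes, and is made by fibroblasts, pericytes, smooth muscle and endothelial cells. A few membrane-spanning collagens are made by neurons, among them COL25A1, whose protein is found in amyloid plaques.

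The libraries differed in ways that the group labels do not give, and these are measured facts that move with some of the values below. Genes of the pituitary, which hangs from the hypothalamus, added up to 14.6 to 20.4 TPM in GF pigs, to 327 and 82.8 TPM in CG replicates 1 and 2, and to 5637 TPM in CG replicate 3, where all 12 of the listed genes in the table stood at 2 or more times the mean of the other CG pigs. Genes of the hypothalamus itself added up to 1217 to 2691 TPM in CG pigs and to 1188 and 1090 TPM in GF replicates 2 and 3, but to 53.9 TPM in GF replicate 1. Of 20 tested, 11 fell in GF pigs, where 4.93% of all tested genes fell. Without GF replicate 1, 4 of 20 fell, where 25 of 14570 tested genes fell. In that fit 19 of 20 were lower in GF pigs, with a median log2 fold change of -1.74 against -0.20 over all tested genes. Without CG replicate 1, 1 of 15 fell, and without CG replicate 2 or 3, 0 of 15. Genes of the neighbouring thalamus added up to 1600 and 1365 TPM in GF replicates 1 and 3 and to 245 to 338 TPM in the other 4 libraries. Y-linked genes summed to 29.0 and 35.1 TPM for CG replicates 1 and 2 but to at most 0.04 TPM in the other libraries, although every pig is labelled male. Red blood cell genes added up to 612, 1196 and 427 TPM in GF replicates 1 to 3 and to 9.77 to 19.5 TPM in CG pigs. Mitochondrial genes took 141508 to 150806 TPM in GF pigs against 66667 to 95828 in CG pigs, and over all tested genes the median log2 fold change, GF over CG, was -0.23. Whether these differences lie in the pigs or in the piece of tissue taken cannot be told apart, and in bulk tissue fewer cells of a kind and less RNA per cell cannot be told apart.

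Collagen genes took a small share of the mRNA, between 0.0313% and 0.0461% in 5 libraries and 0.110% in CG replicate 3. Their summed level was 381, 261 and 265 TPM for GF replicates 1 to 3, next to 350, 374 and 894 TPM for CG replicates 1 to 3, and values below follow this order of the pigs. GF replicate 1 lay within the range of the CG pigs, and CG replicate 3 stood far above all other libraries. In every library, 29 to 32 of the 39 genes reached 1 TPM, and the 8 genes with the highest mean held 56.9% to 70.5% of the collagen TPM. These were COL1A1, COL1A2, COL3A1, COL4A2, COL25A1, COL6A1, COL6A2 and COL11A2.

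**Figure D1:**
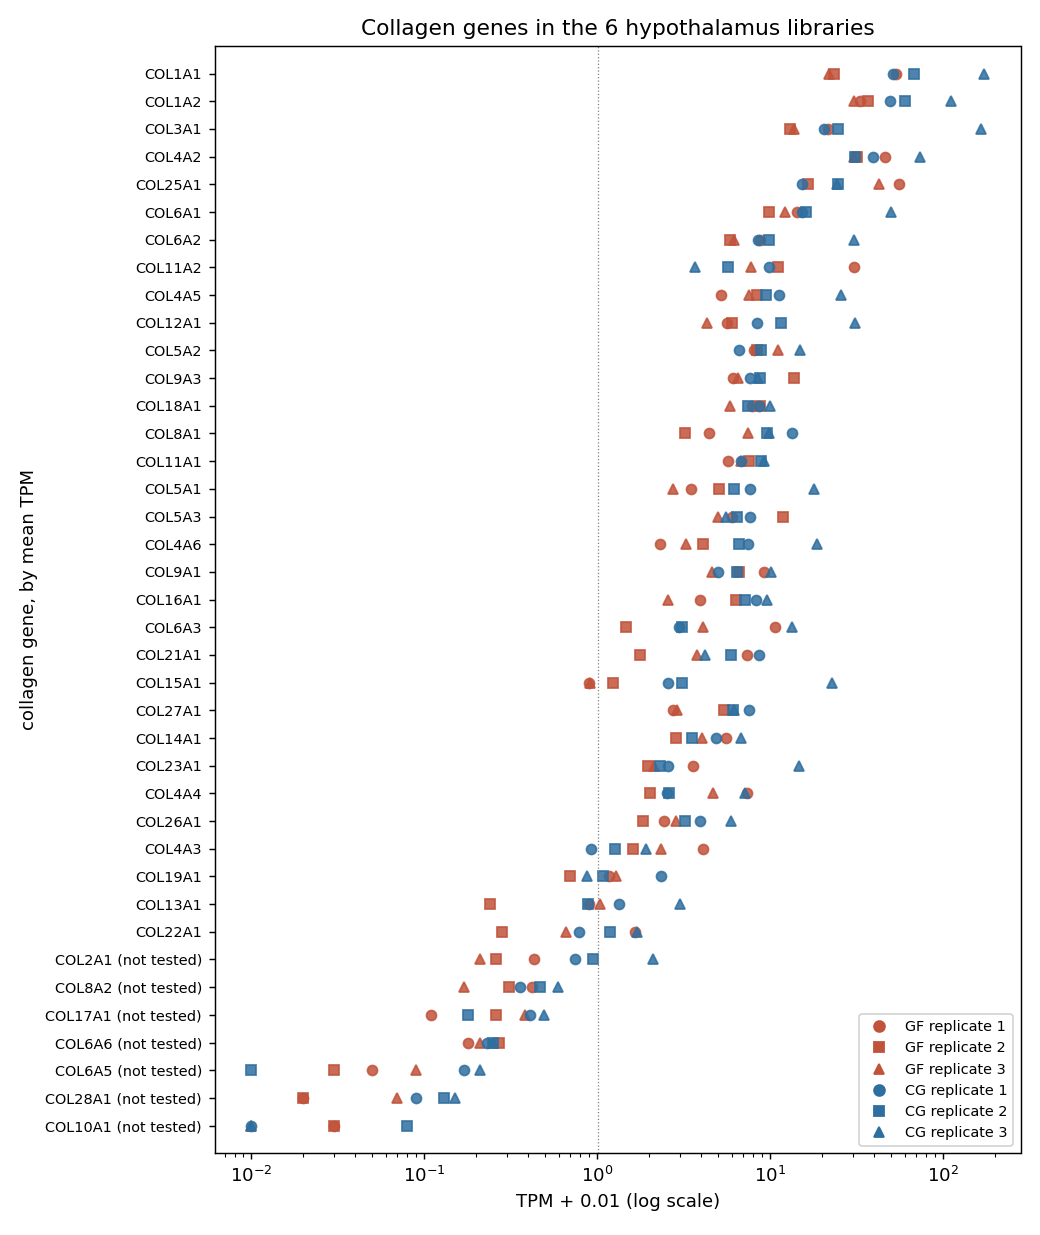
Each row is a collagen gene, ordered by its mean over the 6 libraries, and each mark is the TPM of 1 library plus 0.01 on a log axis, red for GF pigs and blue for CG pigs, with a dotted line at 1 TPM. The blue triangles of CG replicate 3 lie furthest to the right in COL1A1, COL3A1, COL15A1 and COL23A1, and the 7 genes marked as not tested lie at the bottom.

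Between the groups, 32 of the 39 genes could be tested, namely those with at least 1 TPM in at least 3 libraries. A gene is said to have risen or fallen in GF pigs at an adjusted p under 0.05 by limma over all 14641 tested genes. By this rule 0 of 32 collagen genes rose and 0 fell, where 1.08% of all tested genes rose and 4.93% fell, and under the fold threshold that the study added, a log2 change of 1 either way, the count was again 0, against 2.89%. The study called genes by another test, edgeR, so these counts are not its own. Its enriched pathways included protein digestion and absorption, ECM-receptor interaction and the removal of fibrillar collagen N-propeptides. The text of the paper does not name the genes behind them. By limma the lowest adjusted p among the members was 0.068. At an unadjusted p under 0.05, 11 of 32 were lower in GF pigs, which is 34.4% against 26.6% of all tested genes, and 0 were higher, against 4.31%. In 11 of 32 all GF libraries were under all CG libraries, 34.4% against a background of 32.8%, and 10 genes met both rules, while the reverse order was seen in 0, against 5.42%. By these shares the collagen genes stood close to the rest of the genes.

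They stood further from it in the size of the differences. The fitted log2 fold change, GF over CG on the scale of log2(TPM + 1), was below 0 in 27 of 32 members, which is 84.4% against 72.7% of all tested genes, and at -0.5 or lower in 17, which is 53.1% against 24.5%. The median was -0.59 over the members and -0.23 over all tested genes. With each library centred on its median, 20 of 32 members were below 0 and their median was -0.35, against 0.01 over all tested genes. Without CG replicate 3, 19 of 30 members were below 0, which is 63.3% against 72.4% of all tested genes, and the medians were -0.37 and -0.22. At an unadjusted p under 0.05, 9 of these 30 were then lower in GF pigs, which is 30% against 22.1%.

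**Figure D2:**
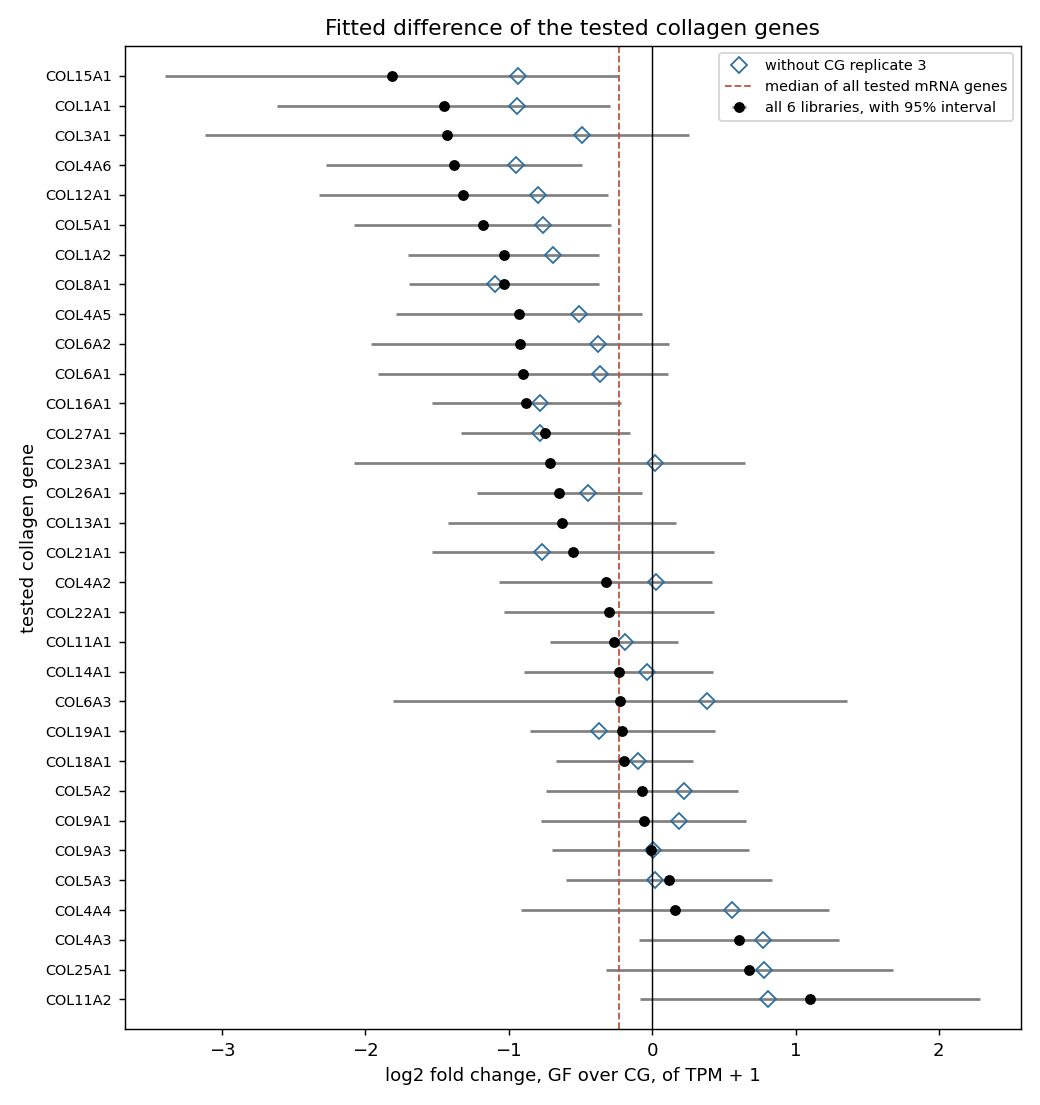
Fitted log2 fold change of each tested collagen gene, GF over CG on log2(TPM + 1), with all 6 libraries as black points with 95% intervals and without CG replicate 3 as open diamonds. The dashed line is the median of all tested mRNA genes at -0.23. COL13A1 and COL22A1 have no diamond, as they miss the low-value filter without that library, and among the genes right of 0, COL4A4 and COL5A3 turned sign without another library and COL25A1 with its highest transcript alone.

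CG replicate 3 stood apart in many collagen genes. It held at least 2 times the mean of CG replicates 1 and 2 in 15 of 32 tested members, which is 46.9% against 4.08% of all tested genes. The median ratio was 1.85 over the members and 0.98 over all tested genes. The ratio was 8.10 for COL15A1, 7.30 for COL3A1, 6.06 for COL23A1 and 4.41 for COL6A3, and it was 0.51 for COL19A1 and 0.47 for COL11A2, so that not every collagen followed. Among GF pigs, replicate 1 held at least 2 times the mean of the other GF pigs in 7 members, namely COL1A1, COL4A3, COL4A4, COL6A3, COL11A2, COL21A1 and COL22A1, which is 21.9% against 2.85% of all tested genes. Whether the pituitary genes of CG replicate 3 or the low hypothalamic gene sum of GF replicate 1 have a part in these levels was not tested.

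**Figure D3:**
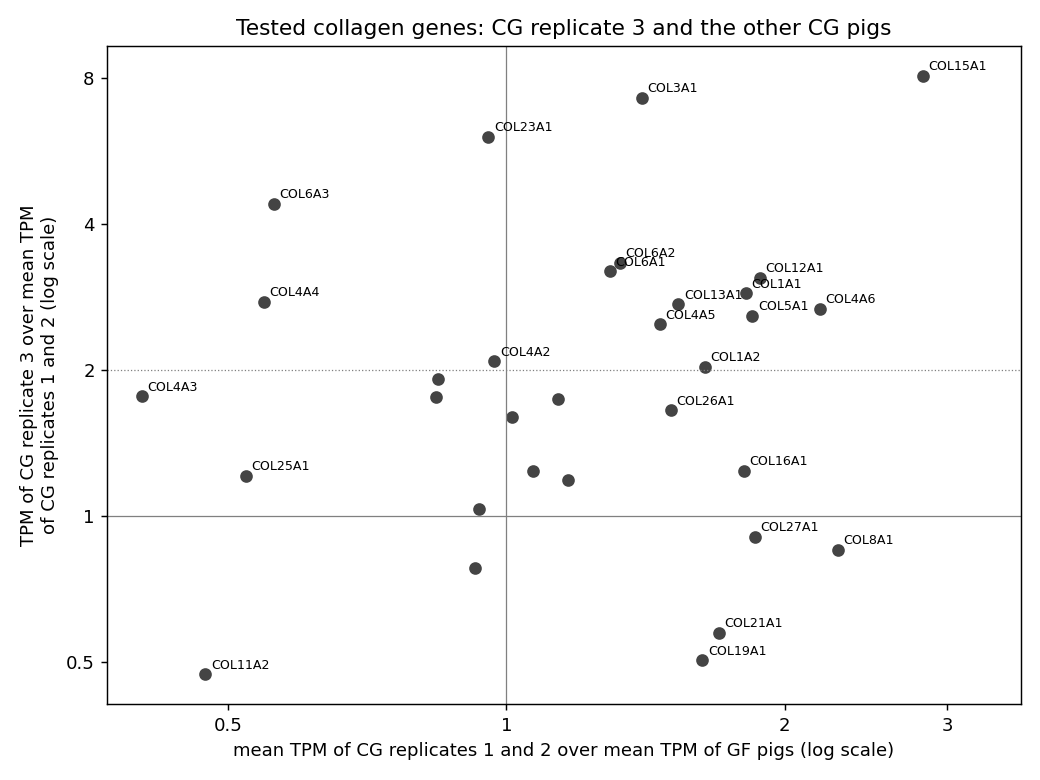
Each point is a tested collagen gene, placed by the mean TPM of CG replicates 1 and 2 over the mean of the GF pigs on the horizontal axis and by the TPM of CG replicate 3 over the mean of the other CG pigs on the vertical axis, both on log scales. The 15 genes above the dotted line are those at 2 or more times, with COL15A1 and COL3A1 at 8.10 and 7.30, while COL8A1 and COL27A1 lie to the right without a high CG replicate 3.

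Fibrillar collagens, with 10 members of which 9 were tested, held the largest share. Their sum was 165, 123 and 102 TPM for GF pigs, next to 168, 196 and 508 TPM for CG pigs, so the groups did not overlap but GF replicate 1 came close to CG replicate 1. Type I collagen, the main collagen of skin, bone and meninges, is built from COL1A1 and COL1A2 chains. COL1A1 (chromosome 12, 26379087 to 26397180 in the RefSeq annotation of Sscrofa11.1, as for all positions here) gave 53.1, 23.4 and 21.9 TPM over the GF pigs, next to 51.1, 68.2 and 172 TPM over the CG pigs. The groups overlapped by GF replicate 1, and the log2 fold change was -1.46 ± 0.50 (SE), with an adjusted p of 0.10. Its partner COL1A2 (chromosome 9, 74174484 to 74210407) measured 33.1, 36.7 and 30.4 TPM across GF replicates, against 49.2, 60.4 and 112 TPM across CG replicates. Here the GF pigs lay close together and below every CG pig, and the log2 fold change was -1.03 ± 0.28 with an adjusted p of 0.069. Without CG replicate 3 the log2 fold changes were -0.95 for COL1A1 and -0.70 for COL1A2.

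COL3A1, which makes the type III collagen of vessel walls and loose tissue, gave 21.5, 13.1 and 13.7 TPM over the GF pigs, next to 20.5, 24.6 and 165 TPM over the CG pigs. CG replicates 1 and 2 lay next to the GF pigs, and only CG replicate 3 was high. The mean was 16.1 ± 4.70 (SD, n = 3) TPM for GF and 70.0 ± 82.2 TPM for CG pigs, with an adjusted p of 0.22. COL5A2, which lies next to COL3A1 on chromosome 15 with 16177 bases between them and whose chain joins type V collagen, covered 8.05 to 11.0 TPM among GF pigs and 6.61 to 14.8 TPM among CG pigs. The other type V chain COL5A1, which sets the width of type I fibrils, measured 3.48, 5.08 and 2.72 TPM across GF replicates, against 7.69, 6.19 and 18.0 TPM across CG replicates. Its groups did not overlap, and the adjusted p was 0.093. COL5A3 covered 4.97 to 11.9 TPM among GF pigs and 5.54 to 7.69 TPM among CG pigs.

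COL27A1 and COL11A1 did not stand apart in CG replicate 3, and COL11A2 was lowest there. COL27A1, a fibrillar collagen of cartilage, gave 2.72, 5.38 and 2.89 TPM over the GF pigs, next to 7.56, 6.06 and 6.18 TPM over the CG pigs, with a log2 fold change of -0.74 ± 0.25 and an adjusted p of 0.10. All 3 CG pigs lay above the GF pigs, and CG replicate 3 lay between the other CG pigs. COL11A2, a chain of the type XI collagen that is found within cartilage fibrils, measured 30.6, 11.14 and 7.73 TPM across GF replicates, against 9.89, 5.68 and 3.68 TPM across CG replicates. It had the highest fitted log2 fold change of all members, at 1.10 ± 0.51 with an adjusted p of 0.19, and its groups overlapped. COL11A1, the other type XI chain, covered 5.73 to 7.52 TPM among GF pigs and 6.74 to 9.22 TPM among CG pigs. The cartilage collagen COL2A1 missed the filter with 0.42, 0.25 and 0.20 TPM across GF replicates and 0.73, 0.93 and 2.09 TPM across CG replicates.

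**Figure D4:**
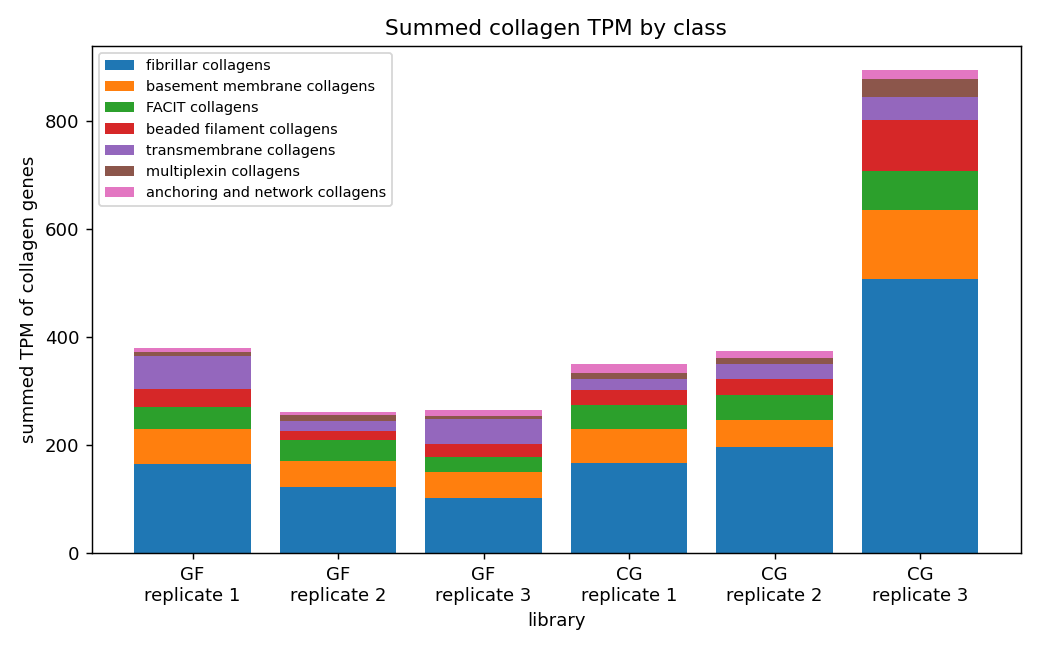
Summed TPM of the collagen genes in each library, stacked by class from a baseline of 0. The fibrillar class takes 508 of 894 TPM in CG replicate 3 and 102 to 196 TPM in the other 5 libraries, and the transmembrane class is tallest in GF replicates 1 and 3.

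Basement membrane collagens are encoded by head-to-head pairs of type IV genes, of which the table named COL4A2 to COL4A6. COL4A2, with COL4A1 the chain of all vessel basement membranes, gave 45.9, 31.8 and 30.7 TPM over the GF pigs, next to 39.1, 31.0 and 73.2 TPM over the CG pigs. COL4A1, matched by its identifier, measured 39.2, 26.8 and 28.8 TPM across GF replicates, against 39.2, 36.4 and 111 TPM across CG replicates. In both genes the groups overlapped, and only CG replicate 3 lay apart. The log2 fold changes were -0.32 ± 0.32 for COL4A2 and -0.78 ± 0.41 for COL4A1, with adjusted p of 0.52 and 0.24, and that of COL4A2 was 0.03 without CG replicate 3.

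COL4A5 and COL4A6 are the pair on the X chromosome, at 88958837 to 89183306 and 88634925 to 88750938, and their chains meet in basement membranes of smooth muscle and epithelia. COL4A5 gave 5.18, 8.43 and 7.52 TPM over the GF pigs, next to 11.3, 9.40 and 25.7 TPM over the CG pigs. COL4A6 measured 2.30, 4.06 and 3.26 TPM across GF replicates, against 7.39, 6.61 and 18.8 TPM across CG replicates. All GF pigs were under all CG pigs in both, and the lowest was GF replicate 1. The log2 fold changes were -0.93 ± 0.37 with an adjusted p of 0.14 and -1.38 ± 0.38 with an adjusted p of 0.069. Both were also lower in GF pigs than in CG replicates 1 and 2, at -0.51 and -0.95 without CG replicate 3. The main COL4A5 transcript, ENSSSCT00000064699, overlapped between the groups. It measured 5.14, 8.35 and 7.45 TPM across GF replicates, against 9.94, 3.95 and 21.5 TPM across CG replicates. Its log2 fold change was -0.44 with an adjusted p of 0.60 by limma. ENSSSCT00000013747 held 0 TPM in every GF pig and 0.85, 5.30 and 1.11 TPM across CG replicates. Both genes are X-linked, and only CG replicates 1 and 2 held Y-linked transcripts above 0.04 TPM in sum, a difference whose part in these levels was not tested.

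COL4A3 and COL4A4 form the pair on chromosome 15, known best from the kidney. COL4A3 gave 4.09, 1.61 and 2.33 TPM over the GF pigs, next to 0.91, 1.25 and 1.91 TPM over the CG pigs. COL4A4 measured 7.36, 2.02 and 4.67 TPM across GF replicates, against 2.53, 2.59 and 7.10 TPM across CG replicates. GF replicate 1 was the highest library in both, and the groups overlapped. The log2 fold changes were 0.61 ± 0.30 with an adjusted p of 0.21 and 0.16 ± 0.46 with an adjusted p of 0.84, where the value of COL4A4 was below 0 without any 1 of GF replicate 1, CG replicate 1 and CG replicate 2, down to -0.18.

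Since the chains of a helix are assembled in fixed proportions, the ratios of partner genes were compared within each library. The ratio of COL4A5 to COL4A6 was 2.25, 2.08 and 2.31 in GF pigs and 1.53, 1.42 and 1.37 in CG pigs. It varied little within each group, at 2.21 ± 0.12 (SD, n = 3) and 1.44 ± 0.078, and CG replicate 3 did not stand apart. The COL4A5 level here is the sum of its transcripts, and its main transcript alone overlapped between the groups. The ratio of COL4A1 to COL4A2 was 0.878 ± 0.054 in GF pigs and 1.23 ± 0.27 in CG pigs, and that of COL4A4 to COL4A3 was 1.69 ± 0.39 and 2.86 ± 0.83, again without overlap. An exact two-sided permutation test gave p = 0.10 for each of these 3 ratios, which is the smallest p that 3 against 3 pigs can give, and 0.23 adjusted over the 7 ratios. The ratio of COL1A1 to COL1A2 was 1.60, 0.638 and 0.721 in GF pigs and 1.04, 1.13 and 1.54 in CG pigs, and it overlapped (exact permutation p = 0.60). In the RefSeq annotation COL4A1 and COL4A2 overlap by 525 bases and COL4A4 and COL4A3 by 663 bases, and strand use in counting was not stated, so the split of reads there is uncertain.

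Beaded filament collagens are the type VI genes, whose chains form a fine network around cells. COL6A1 gave 14.4, 9.85 and 12.2 TPM over the GF pigs, next to 15.2, 16.2 and 50.2 TPM over the CG pigs. COL6A2 measured 8.74, 5.88 and 6.18 TPM across GF replicates, against 8.51, 9.87 and 30.6 TPM across CG replicates. Both ran in step, with a COL6A1 to COL6A2 ratio of 1.76 ± 0.18 in GF pigs and 1.69 ± 0.084 in CG pigs (exact permutation p = 0.50). Their log2 fold changes were -0.90 ± 0.43 and -0.92 ± 0.44, both with an adjusted p of 0.20, and without CG replicate 3 they were -0.36 and -0.38. COL6A3, the long chain that joins them, gave 10.7, 1.46 and 4.07 TPM over the GF pigs, next to 2.97, 3.10 and 13.4 TPM over the CG pigs. It was high in 1 library of each group, GF replicate 1 and CG replicate 3, and its ratio to COL6A1 ran from 0.148 to 0.746 in GF pigs and from 0.191 to 0.267 in CG pigs. COL6A5 and COL6A6 stayed at or below 0.26 TPM.

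The high COL6A3 libraries did not hold the same transcript. Transcript ENSSSCT00000059316 measured 9.44, 0 and 2.27 TPM across GF replicates, against 0, 0.07 and 1.60 TPM across CG replicates. Transcript ENSSSCT00000047656 gave 1.07, 1.37 and 1.75 TPM over the GF pigs, next to 2.85, 2.99 and 8.68 TPM over the CG pigs. The first carried GF replicate 1 and the second CG replicate 3, and the second had no overlap between the groups, with a log2 fold change of -1.15 and an adjusted p of 0.11. TPM of single isoforms rest on an estimate of how shared reads divide, and the number of reads behind them is unknown.

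Among the network-forming collagens, COL8A1, a short-chain collagen made by endothelial and smooth muscle cells, did not pass the test. It measured 4.40, 3.23 and 7.45 TPM across GF replicates, against 13.3, 9.64 and 9.82 TPM across CG replicates. The groups did not overlap, CG replicate 1 was the highest, and the mean was 5.03 ± 2.18 TPM against 10.9 ± 2.09 TPM. The log2 fold change was -1.03 ± 0.28 and its adjusted p of 0.068 was the lowest of the family, and without CG replicate 3 the log2 fold change was -1.10. Its transcript with the highest mean, ENSSSCT00000046576, held 3.18, 2.62 and 5.40 TPM in the GF libraries and 6.08, 6.61 and 3.91 TPM in the CG libraries. With that transcript alone the groups overlapped, and the log2 fold change was -0.48 with an adjusted p of 0.31. COL26A1, which was grouped here for want of another class, gave 2.43, 1.83 and 2.86 TPM over the GF pigs, next to 3.92, 3.23 and 5.92 TPM over the CG pigs, with an adjusted p of 0.13. COL8A2, COL10A1 and COL28A1 stayed below 0.6 TPM in every library and were not tested.

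FACIT collagens sit on the surface of fibrils and link them to other matrix, and all 8 members were tested. COL12A1, found in dense tissue and meninges, measured 5.63, 6.05 and 4.28 TPM across GF replicates, against 8.43, 11.6 and 31.1 TPM across CG replicates. Every GF pig lay below every CG pig, with a log2 fold change of -1.32 ± 0.43 and an adjusted p of 0.093. COL16A1 gave 3.94, 6.31 and 2.57 TPM over the GF pigs, next to 8.29, 7.15 and 9.59 TPM over the CG pigs, with a log2 fold change of -0.88 ± 0.28 and an adjusted p of 0.091. COL16A1 and COL27A1 passed the test without GF replicate 2, at log2 fold changes of -1.15 and -0.99 with adjusted p of 0.042 and 0.041, which are the lowest in ranges of 0.042 to 0.45 and 0.041 to 0.29 over all 13 alternatives. That fit called 927 of 14544 tested genes lower in GF pigs, against 722 of 14641 with all libraries. COL9A1, COL9A3, COL14A1, COL19A1, COL21A1 and COL22A1 ran from 0.27 to 13.8 TPM, overlapped between the groups and had fitted log2 fold changes of -0.55 to -0.01. With centred libraries COL9A1, COL9A3, COL14A1 and COL19A1 were above 0.

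At the level of transcripts, 52 of the 138 could be tested and 1 fell, which is 1.92% against 5.25% of the 27945 tested transcripts, while 0 rose against 2.29%, and in either direction 7.54% of all tested transcripts changed. This was ENSSSCT00000089114 of COL12A1, at 0.31, 1.5 and 0.58 TPM over the GF pigs, next to 2.55, 4.78 and 5.33 TPM over the CG pigs. The groups did not overlap, with a log2 fold change of -1.55 and an adjusted p of 0.046 by limma. It passed in 1 of the 6 fits that each left out a library, where the adjusted p ran from 0.045 to 0.14. The main transcript of the same gene, ENSSSCT00000074627, held 56.7% of the gene's TPM in GF pigs and 61.2% in CG pigs, with an adjusted p of 0.14.

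Multiplexins are basement membrane collagens that carry sugar chains, and COL18A1 is the source of endostatin. COL15A1 measured 0.89, 1.22 and 0.90 TPM across GF replicates, against 2.56, 3.10 and 22.9 TPM across CG replicates. It had the lowest fitted log2 fold change of the family, at -1.82 ± 0.67 with an adjusted p of 0.12, and -0.94 without CG replicate 3. Its transcript ENSSSCT00000042391 gave 0.25, 0 and 0 TPM over the GF pigs, next to 1.59, 1.60 and 12.9 TPM over the CG pigs, while ENSSSCT00000037246 ran from 0.57 to 1.2 TPM among GF pigs and measured 0.93, 1.18 and 9.96 TPM across CG replicates. COL18A1 covered 5.84 to 8.78 TPM among GF pigs and 7.43 to 9.95 TPM among CG pigs, with an adjusted p of 0.55.

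Among the transmembrane collagens, COL25A1 was higher in 2 of the 3 GF pigs than in any CG pig. COL25A1 (chromosome 8, 112866597 to 113335765) measured 55.9, 16.5 and 42.8 TPM across GF replicates, against 15.3, 24.8 and 24.4 TPM across CG replicates. GF replicates 1 and 3 were above every CG pig, and GF replicate 2 lay among them. The log2 fold change was 0.68 ± 0.43 with an adjusted p of 0.32, and without GF replicate 2 it was 1.18 with an adjusted p of 0.042, the lowest in a range of 0.042 to 0.66 over the fits that left out a library. Without GF replicate 2 the fit called 410 of 14544 tested genes higher in GF pigs, against 158 of 14641 with all libraries. The same GF replicates 1 and 3 held the high sums of thalamus genes, at 1600 and 1365 TPM against 245 TPM in GF replicate 2, and the part of this in COL25A1 was not tested. COL23A1 gave 3.56, 1.95 and 2.13 TPM over the GF pigs, next to 2.56, 2.31 and 14.8 TPM over the CG pigs, so that CG replicate 3 alone was high. COL13A1, a collagen of neuromuscular junctions, covered 0.23 to 1.03 TPM among GF pigs and 0.88 to 3.01 TPM among CG pigs, and COL17A1 stayed below 0.5 TPM.

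The transcripts of COL25A1 were read in different proportions from pig to pig, and for some of them the proportions did not overlap between the groups. ENSSSCT00000049409 measured 15.4, 8.35 and 13.4 TPM across GF replicates, against 9.52, 16.2 and 18.1 TPM across CG replicates. ENSSSCT00000057050 gave 27.6, 4.57 and 18.6 TPM over the GF pigs, next to 4.64, 6.71 and 3.82 TPM over the CG pigs. Both overlapped between the groups and neither passed, with adjusted p of 0.68 and 0.18. The first was the higher of the pair in GF replicate 2 and in every CG pig, and the second in GF replicates 1 and 3. As a share of the gene's TPM, however, the first did not overlap between the groups. It held 27.6%, 50.5% and 31.4% across GF replicates, against 62.2%, 65.4% and 74.4% across CG replicates. The share of the second overlapped. The lesser transcripts ENSSSCT00000057645 and ENSSSCT00000060299 lay above every CG pig in every GF pig, at 1.57 to 6.86 TPM against 0 to 1.14 TPM and at 2.04 to 6.01 TPM against 0.75 to 1.89 TPM. These lesser transcripts did not pass the limma test either, with adjusted p of 0.066 and 0.095. Their shares of the gene's TPM were also higher in every GF pig than in every CG pig. A difference in shares between the groups was not tested. The shares of a gene are tied to each other, since a higher share of a transcript lowers the rest. How often such an order is seen over all transcripts was not counted. Of all tested genes, 5.42% had every GF library above every CG library.

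The lncRNA table held 5 transcripts assigned to collagen genes. That of COL4A6, NONSUST028743.1, measured 2.50, 2.28 and 5.20 TPM across GF replicates, against 0, 16.0 and 9.81 TPM across CG replicates, so that the CG pigs enclosed the GF pigs. That of COL21A1 was listed at 6.67 TPM in CG replicate 3 and at 0 elsewhere, and those of COL4A4, COL5A3 and COL28A1 stayed between 0 and 3.25 TPM.

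Collagen needs enzymes and partners, and 121 of these were in the table, 109 of them tested. Of these, 2 rose and 9 fell, against 1.08% and 4.93% of all tested genes, and their median log2 fold change was -0.40 against -0.23. The procollagen N-proteinases ADAMTS2, ADAMTS3 and ADAMTS14 cut the front end off fibrillar procollagens so that fibrils can form. ADAMTS14 gave 3.48, 8.12 and 4.19 TPM over the GF pigs, next to 14.2, 14.8 and 12.7 TPM over the CG pigs, and ADAMTS3 gave 0.96, 1.54 and 3.81 TPM against 6.71, 8.03 and 7.69 TPM. ADAMTS2 measured 1.90, 1.93 and 2.66 TPM across GF replicates, against 5.76, 4.75 and 10.2 TPM across CG replicates. All 3 fell, without overlap, by log2 fold changes of -1.32, -1.55 and -1.27 with an adjusted p of 0.047 each, and CG replicate 3 was the highest library for ADAMTS2 only. Over the 13 alternatives ADAMTS14 passed in 3, ADAMTS3 in 0 and ADAMTS2 in 2, with adjusted p of up to 0.17, 0.17 and 0.16. They were 3 of the 11 tested genes for procollagen trimming and cross-linking, of which 0 rose and whose median was -1.07. PCOLCE, which speeds the cut at the other end, stood at 6.25, 5.14 and 4.75 TPM against 13.8, 12.6 and 36.6 TPM, with an adjusted p of 0.052.

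Where 4.93% of all tested genes fell and 1.08% rose, 1 of 20 tested genes that modify and fold collagen chains fell and 0 rose. This was P3H3, which acts with P3H4 in the modification of collagen, at 2.06, 3.21 and 2.02 TPM over the GF pigs, next to 7.74, 6.57 and 17.3 TPM over the CG pigs, with a log2 fold change of -1.65 and an adjusted p of 0.047. P3H4, COLGALT1 and CRTAP were lower in every GF pig than in every CG pig, with adjusted p of 0.068 to 0.089. That order held in 32.8% of all tested genes, and MIA3 had the reverse order, as 5.42% did. SERPINH1, the chaperone of procollagen, covered 37.5 to 39.6 TPM among GF pigs and measured 47.5, 38.3 and 569 TPM across CG replicates. It was named after its values were seen.

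Of 9 tested receptors, CD44 fell and 0 rose, against 4.93% and 1.08% of all tested genes. CD44, a receptor for hyaluronan that also binds collagen, gave 7.47, 9.48 and 7.83 TPM over the GF pigs, next to 80.0, 43.4 and 47.4 TPM over the CG pigs. The groups lay far apart, with a log2 fold change of -2.60 and an adjusted p of 0.0078, and it passed in 5 of the 6 fits that left out a library, where the adjusted p ran from 0.014 to 0.051, and had an adjusted p of 0.076 without GF replicate 1 and CG replicate 3 together. ITGA2 and DDR2, a subunit of a collagen-binding integrin and a receptor kinase for fibrillar collagen, were lower in every GF pig than in every CG pig, with adjusted p of 0.12 for each. Of all tested genes, 32.8% had this order. Among the 9 tested genes for collagen breakdown 0 rose and 0 fell by limma, where 3 had an unadjusted p under 0.05. At that p 26.6% of all tested genes were lower in GF pigs and 4.31% higher. MMP14, which cuts collagen at the cell surface, measured 22.5, 34.6 and 26.9 TPM across GF replicates, against 52.5, 36.4 and 61.9 TPM across CG replicates, with an adjusted p of 0.076, and the gelatinase MMP2 had an adjusted p of 0.092.

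Of 26 tested genes for other matrix around fibrils, 2 rose and 3 fell, against 1.08% and 4.93% of all tested genes. VCAN, which encodes the proteoglycan versican, rose with 83.6, 84.8 and 79.5 TPM over the GF pigs, next to 57.6, 54.2 and 46.9 TPM over the CG pigs, at a log2 fold change of 0.64 and an adjusted p of 0.043. MFAP4, a protein of elastic fibres, rose with 9.70, 12.4 and 6.97 TPM against 3.17, 4.12 and 3.91 TPM, at a log2 fold change of 1.15 and an adjusted p of 0.044. PRELP, THBS1 and FBN1 fell at log2 fold changes of -1.20, -1.33 and -1.20. Each was highest in CG replicate 3, at 31.7, 21.4 and 21.2 TPM, but lower in every GF pig than in any CG pig. Of 13 other tested basement membrane genes 0 rose and 0 fell by limma, where 4 had an unadjusted p under 0.05, and AGRN, which encodes agrin, had an adjusted p of 0.054. At an unadjusted p under 0.05, 26.6% of all tested genes were lower in GF pigs and 4.31% higher.

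Of 21 tested genes of fibrosis signals, CCN3 fell and 0 rose, against 4.93% and 1.08% of all tested genes. CCN3, a secreted protein that binds integrins, gave 5.17, 8.49 and 9.0 TPM over the GF pigs, next to 23.9, 43.1 and 27.9 TPM over the CG pigs, with a log2 fold change of -1.92 and an adjusted p of 0.029. SMAD3, SMAD7 and TGFB2 were lower in every GF pig than in every CG pig, with adjusted p of 0.059 to 0.079. Of all tested genes, 32.8% had this order. The count of 11 partner genes that changed was 13 without GF replicate 2, of which 6 were among the 11, 0 without GF replicate 3 and 1 without any other 1 library, and 4 with centred libraries, where VCAN, MFAP4, CD44 and CCN3 passed. Over the 6 fits that left out a library, ADAMTS2, ADAMTS3, FBN1, MFAP4 and THBS1 passed in 0, ADAMTS14, CCN3, P3H3, PRELP and VCAN in 1 each, and CD44 in 5. All 11 kept their direction in the 13 alternatives. They were picked with these same libraries and did not overlap between the groups, so leaving out libraries could not turn their direction.

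**Figure D5:**
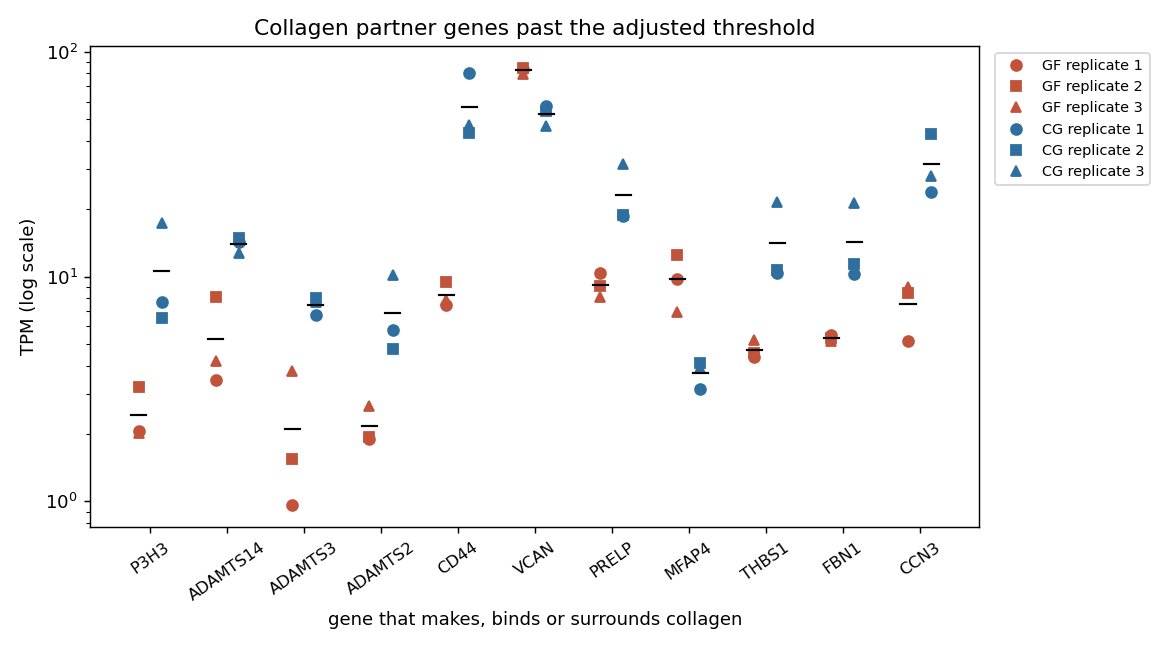
TPM on a log axis of the 11 partner genes that rose or fell by limma, 1 mark per library, red for GF pigs and blue for CG pigs, with a bar at the mean of each group. The groups do not overlap in any of the 11, with VCAN and MFAP4 higher in GF pigs and the other 9 lower, and CD44 shows the widest gap, 7.47 to 9.48 TPM against 43.4 to 80.0 TPM.

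The summed markers of cells that make collagen were compared with the collagens. Fibroblast and meningeal markers added up to 608 to 1121 TPM in GF pigs and to 427 to 551 TPM in CG pigs, led by APOD at 285 to 1000 TPM. Of 13 tested, 1 fell (FOXD1) and 0 rose, against 4.93% and 1.08% of all tested genes. Without APOD the other 14 markers added up to 114, 122 and 115 TPM in GF pigs and to 120, 126 and 142 TPM in CG pigs, so the higher GF sum came from that gene. DCN, a fibroblast gene whose product binds collagen fibrils, measured 6.98, 10.1 and 9.10 TPM across GF replicates, against 4.15, 5.71 and 26.2 TPM across CG replicates, and was named after its values were seen. Pericyte and smooth muscle markers added up to 209 to 248 TPM in GF pigs and to 240 to 276 TPM in CG pigs, and endothelial markers to 346 to 416 TPM and 378 to 425 TPM. CG replicate 3 held at least 2 times the mean of the other CG pigs in 1 of 15 pericyte, 1 of 15 endothelial and 3 of 15 fibroblast markers in the table. Among tested markers these were 1 of 15, 1 of 15 and 2 of 13, against 4.08% of all tested genes. Without APOD, 6 of the other 14 fibroblast markers were lower in CG replicate 3 than the mean of the other CG pigs. The median ratio to that mean was 0.98 over all tested genes. Ependyma and tanycyte markers added up to 214 to 422 TPM in GF pigs, to 473 and 455 TPM in CG replicates 1 and 2 and to 981 TPM in CG replicate 3. The part of these cells in the collagen levels was not tested.

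MicroRNAs of the miR-29 family are known to bind many collagen mRNAs. Of 4 tested members, 0 rose and 0 fell by limma, against 6.13% and 10.1% of the 326 tested miRNAs, 16.3% in all, where 1 had an unadjusted p under 0.05. In RPM, the reads of a miRNA relative to all reads assigned to miRBase, ssc-miR-29a-3p stood at 4440, 5501 and 5641 in GF pigs and at 6192, 6423 and 7064 in CG pigs. It was lower in every GF pig, with a log2 fold change of -0.34 ± 0.13 and an adjusted p of 0.12, which were -0.041 and 0.86 with centred libraries. The level of ssc-miR-29b was 268, 356 and 327 RPM in GF pigs and 241, 270 and 243 RPM in CG pigs, overlapping by GF replicate 1, with an adjusted p of 0.17, which was 0.037 with centred libraries and 0.072 to 0.38 in the fits that left out a library. For ssc-miR-29c it was 677, 583 and 689 RPM against 626, 633 and 689 RPM, with a log2 fold change of -0.0019, and ssc-miR-29a-5p stayed at 6.44 to 8.88 RPM.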

How the data were processed

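The deposited tables hold long RNA values that the authors gave as TPM per mRNA or lncRNA transcript, and small RNA values that the authors gave as RPM, the reads of each known miRNA over the total mapped to miRBase. For long RNA the paper names TopHat, Cufflinks and HTSeq on Sscrofa11.1, and the labels name a stranded kit with fastp, HISAT and RSEM. TPM keep no depth, so no counting error can be given. Columns were assigned to pigs by their names, and the CG columns are named after the fecal transplant. TPM were added per gene and tested as log2(TPM + 1) with limma 3.58.1 (limma-trend) in R 4.3.3, for genes with at least 1 TPM in at least 3 libraries, with Benjamini-Hochberg adjustment over all tested genes, and likewise per transcript and per miRNA. Calls needed an adjusted p under 0.05. The count test of the study was not used, as it cannot take TPM. The fit was tested on simulated data. Ratios and sums used Python 3.11.15, pandas 2.3.3, numpy 2.4.6 and scipy 1.17.1, and plots matplotlib 3.10.9. Positions and 654 further gene names came from RefSeq and reference tables.

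The members, the lists of partner and marker genes and the tests were chosen with earlier results of these data known. Values of every library are given for the 8 members with the highest mean, the subunit partners, untested members with 1 TPM in any library and, chosen after their values were seen, for the other members with an unadjusted p under 0.05 and for COL6A3, COL12A1, COL15A1 and COL25A1 transcripts, SERPINH1 and DCN. FBN1 and FOXD1 were also named after their values were seen. From the other lists up to 4 members with the smallest p are named, and from marker lists those with the highest mean. The alternatives were a pseudocount of 0.1, no filter, the replicate number as a block, median-centred libraries, leaving out each library, mitochondrial genes out of the scaling and the highest transcript alone, and, chosen after seeing the data, leaving out GF replicate 1 and CG replicate 3 together. Which pigs shared an isolator is not stated, and p-values measure the spread between these pigs only.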

Additional observations from a re-analysis of the deposited data

How the results depend on the processing

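Of the 32 tested collagen genes, 0 rose and 0 fell under each alternative except without GF replicate 2, where 1 rose (COL25A1) and 2 fell (COL16A1 and COL27A1). That fit also called more genes in all, with 410 risen and 927 fallen of 14544 tested. Leaving out 1 library thus gave 0 to 1 risen and 0 to 2 fallen collagen genes, and 0 to 2 at the fold threshold. The 11 members at an unadjusted p under 0.05 kept their sign in every alternative, at -2.41 to -0.33. They were picked with these same libraries. In 10 of them every GF library was below every CG library, so leaving out libraries could not turn their sign. The count of lower members at that p was 6 with centred libraries and 5 to 12 without 1 library, and the count of higher members, 0, became 1 with the replicate block, 2 with centred libraries and 0 to 2 without 1 library. Over all genes, 158 rose and 722 fell. With the replicate block these were 17 and 18, but the replicate numbers name different pigs, so the block pairs nothing in the design. They were 123 and 510 with a pseudocount of 0.1, 88 and 254 without a filter, 265 and 129 with centred libraries, 120 and 164 with mitochondrial genes out of the scaling, 196 and 616 with the highest transcript alone, 8 and 8 without GF replicate 1 and CG replicate 3, and 12 to 410 and 4 to 927 without 1 library. Changed collagen transcripts, 1, became 0 to 4 without 1 library and 0 under each other alternative. Changed partner genes, 11, became 9 with a pseudocount of 0.1 or the highest transcript alone, 3 without a filter or with mitochondrial genes out of the scaling, 1 with the replicate block, 4 with centred libraries, 0 without both libraries and 0 to 13 without 1 library. Changed miR-29 members, 0, became 1 with centred libraries (ssc-miR-29b).

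Signs turned in these settings. Centred libraries gave log2 fold changes of 0.010 for COL14A1, 0.036 for COL19A1, 0.18 for COL9A1, 0.23 for COL9A3, 0.017 for COL6A3, 0.17 for COL5A2, 0.050 for COL18A1, 0.23 for ssc-miR-29a-5p and 0.30 for ssc-miR-29c. Without both libraries COL9A3 was at 0.20, COL5A2 at 0.30, ssc-miR-29a-5p at 0.10 and ssc-miR-29c at 0.0096. With mitochondrial genes out of the scaling COL9A1 was at 0.031, COL9A3 at 0.080 and COL5A2 at 0.022, and with the highest transcript alone COL5A2 was at 0.053 and COL25A1 at -0.21. Without 1 library the range was -0.37 to 0.047 for COL19A1, -1.11 to 0.019 for COL23A1, -0.58 to 0.028 for COL4A2, -0.18 to 0.56 for COL4A4, -0.31 to 0.22 for COL5A2, -0.22 to 0.34 for COL5A3, -0.80 to 0.39 for COL6A3, -0.27 to 0.18 for COL9A1, -0.35 to 0.18 for COL9A3, -0.17 to 0.031 for ssc-miR-29a-5p and -0.046 to 0.074 for ssc-miR-29c. The cause was not tested. Fits without a pig leave 2 against 3, and a count test of the miRNAs was not run, as whole reads could not be recovered from enough low values.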
